A study of Arabidopsis thaliana with 6 samples.

Results

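The miR172 family of Arabidopsis thaliana is made from 5 annotated precursor loci, MIR172a to MIR172e, and its products were examined in small RNA libraries of leaves from wild-type (WT) plants and from the rdr1 mutant. The members were every sequence of the deposited table that matched the sense strand of one of these precursors in full and without mismatch. There were 11 such sequences among the 18124 of the table, and 0 matched the opposite strand. All 11 reached a mean of 5 over the libraries and were tested. Each genotype had 3 libraries, all from untreated plants grown at 22 °C with 16 h of daylight. The rdr1 plants carry a mutation in RDR1, an RNA-dependent RNA polymerase, which makes double-stranded RNA from a single strand. The allele is not given in the sources used here. Nothing says that replicates came from separate plants, and p-values here measure only the spread between samples, part of which may be technical.

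MicroRNAs are cut from hairpin precursors by Dicer-like 1 as a duplex of strands named 5p and 3p after their arm of the hairpin. In the miR172 family the 3p strand is the guide. It represses the mRNAs of AP2-like transcription factors by blocking translation and by cleavage, and so promotes the change from juvenile to adult leaves and the onset of flowering. In the age pathway miR156 acts upstream: it represses SPL transcription factors, which activate MIR172 genes, so that miR156 declines and miR172 rises as a plant ages.

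The precursor sequences show where the strands come from (TAIR10.1 reference, 5′ to 3′ on the precursor's strand); capitals mark the mature strands annotated by RefSeq.
MIR172a: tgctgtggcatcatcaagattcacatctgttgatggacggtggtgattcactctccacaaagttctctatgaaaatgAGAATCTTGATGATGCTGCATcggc
MIR172b: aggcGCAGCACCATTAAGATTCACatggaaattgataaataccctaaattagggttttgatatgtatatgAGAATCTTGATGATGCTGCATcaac
MIR172c: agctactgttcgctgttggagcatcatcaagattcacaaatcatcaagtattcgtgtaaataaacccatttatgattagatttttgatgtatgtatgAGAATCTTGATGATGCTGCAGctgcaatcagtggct
MIR172d: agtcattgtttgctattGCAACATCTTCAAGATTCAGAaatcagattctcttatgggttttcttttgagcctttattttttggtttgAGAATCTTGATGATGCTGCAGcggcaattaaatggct
MIR172e: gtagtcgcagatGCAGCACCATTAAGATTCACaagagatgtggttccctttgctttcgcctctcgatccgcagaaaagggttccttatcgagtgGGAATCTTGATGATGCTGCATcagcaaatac

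MIR172a (AT2G28056) lies at chr2:11942914-11943015 on the minus strand and MIR172b (AT5G04275) at chr5:1188207-1188301 on the minus strand. MIR172c (AT3G11435) lies at chr3:3599776-3599908 on the minus strand, MIR172d (AT3G55512) at chr3:20587904-20588027 on the plus strand, and MIR172e (AT5G59505) at chr5:23988472-23988596 on the plus strand. Each is annotated as a primary microRNA transcript of 95 to 133 nt. RNAfold gave minimum free energies from -54.9 kcal/mol for MIR172c to -35.5 kcal/mol for MIR172b, and paired 18 or 19 bases of each mature 3p strand of 21 nt with the 5p side. A 5p strand is annotated for MIR172b, MIR172d and MIR172e alone.

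The listed sequences fall into 3 seed groups, shown here with the seed (bases 2 to 8, which lead the pairing with a target) in capitals and in the DNA letters of the table. All 8 sequences of the 3p arm share 1 seed, whereas the 5p strands carry different seeds.
miR172a/b-3p: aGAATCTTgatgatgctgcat
miR172c/d-3p: aGAATCTTgatgatgctgcag
miR172e-3p: gGAATCTTgatgatgctgcat
miR172b/e-5p: gCAGCACCattaagattcac
miR172d-5p: gCAACATCttcaagattcaga

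Relative to miR172a and miR172b, whose mature 3p strands are identical, miR172c and miR172d differ by T21G and miR172e by A1G, counted from the 5′ end. The other 6 listed sequences were length variants. Forms of 17, 18, 19 and 20 nt that begin at the mature 5′ end matched MIR172a, MIR172b, MIR172c and MIR172d alike. A form of 23 nt matched MIR172b, and a form of 20 nt matched the 5p arm of MIR172d. All 11 sequences had 0 matches in the genome outside the MIR172 precursors. Because MIR172a and MIR172b share the 3p strand, MIR172c and MIR172d share theirs, and MIR172b and MIR172e share the 5p strand, the table cannot tell the members of these pairs apart.

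**Figure D1:**
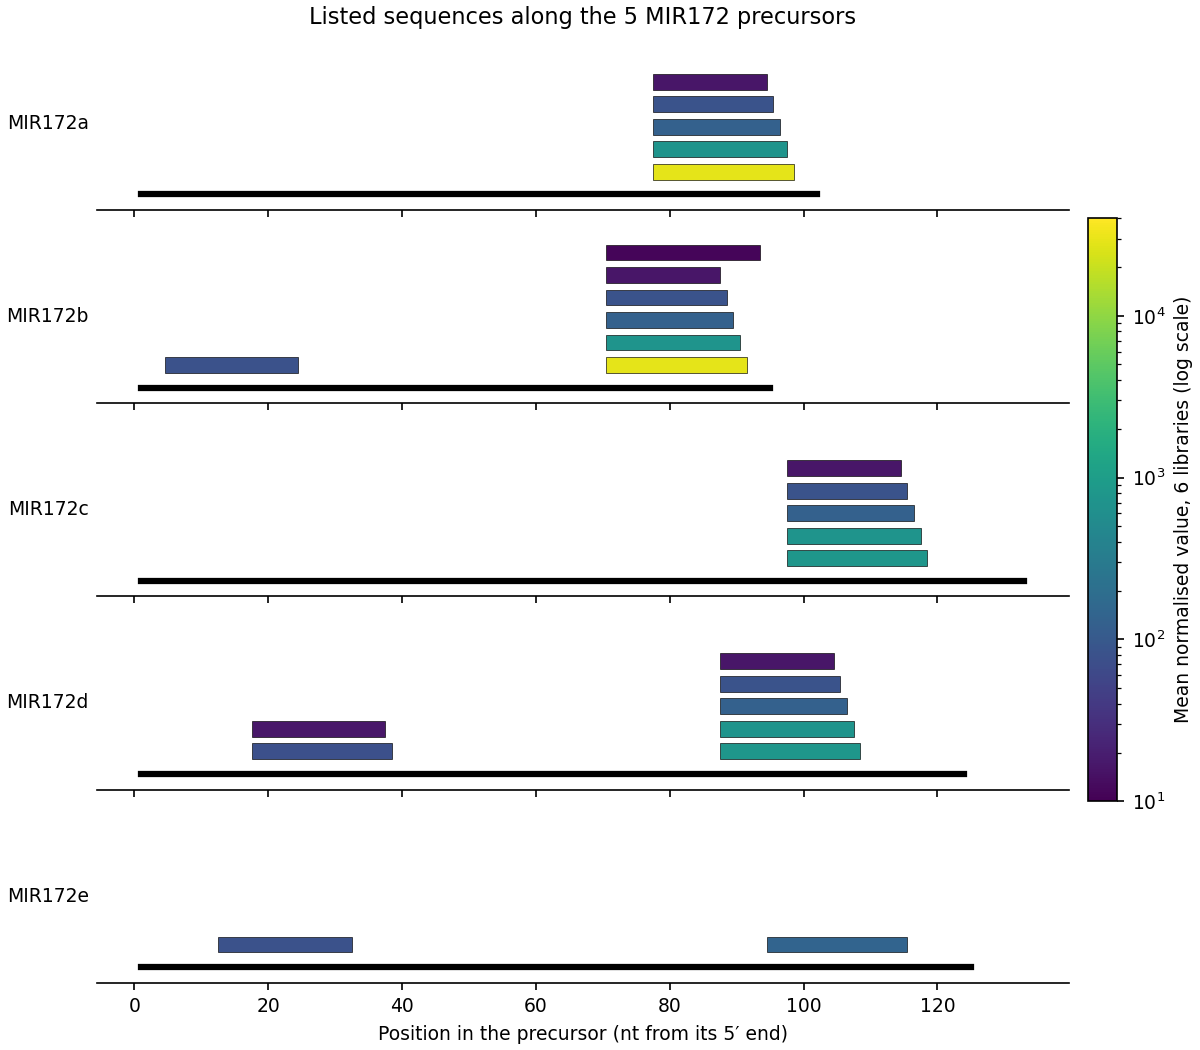
Position of the 11 listed sequences (bars) along the 5 precursors (black lines), in nt from the precursor's 5′ end, coloured by the mean normalised value over 6 libraries on a log scale. Sequences of the 3p arm share a 5′ end within each precursor, and 5p sequences were listed for MIR172b, MIR172d and MIR172e.

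The targets show how the shared seed is used. The best-matching sites for miR172a in the genes of 6 AP2-like factors lay in coding sequence (TAIR10.1, 5′ to 3′ on the gene's strand), and capitals mark the 7 bases opposite the seed, which were identical in all 6. These 7 bases hold a G:U pair with the seed, so the match to the seed is not perfect.
AP2: ctgcagcatcatcAGGATTCt
TOE1: cagcagcatcatcAGGATTCt
TOE2: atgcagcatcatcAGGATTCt
TOE3: tggcagcatcatcAGGATTCt
SMZ: ttgcagcatcatcAGGATTCc
SNZ: ttgtagcatcatcAGGATTCc

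AP2 (APETALA2, AT4G36920), which sets floral organ identity, had its site at chr4:17403019-17403039 on the plus strand, with 1 mismatch and 1 G:U pair to miR172a. TOE1 (AT2G28550, chr2:12226233-12226253, minus strand), TOE2 (AT5G60120, chr5:24210889-24210909, plus strand) and TOE3 (AT5G67180, chr5:26802175-26802195, minus strand) had 2, 0 and 2 mismatches. SMZ (AT3G54990, chr3:20373774-20373794, minus strand) and SNZ (AT2G39250, chr2:16389066-16389086, minus strand) are repressors of flowering and had 2 mismatches each. Counted apart from the mismatches, TOE1, TOE2, TOE3 and SMZ had 1 G:U pair each and SNZ had 2. A match is a description of these letters. The table held 0 small RNAs, in either direction, from these 6 genes or from SPL9 and SPL15, and the lowest maximum over the libraries of any sequence in it was 20.07.

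Values are normalised read counts scaled to 8000000 reads of a library total, and 1 read was worth between 0.804 and 1.71 on this scale. The library totals ranged from 4668411 to 9955668 reads, of which 14289 to 64214 were from MIR172 sequences. Fragment length varied from library to library: forms of 17 to 19 nt made up 5.72% of the listed sum in WT replicate 1 and 35.2% in rdr1 replicate 1, against 13.6% to 18.2% in the other 4. Leaf markers were present, with chloroplast sequences at 14.7% to 19.5% of the listed sum and miR166a at 13319 or more in each library, and the pollen markers miR845a and miR845b were not listed.

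MiR172 was among the most abundant of the miRNAs listed, and nearly all of it was the 3p strand shared by MIR172a and MIR172b. That 21-nt sequence had values of 19830, 21934 and 47978 in WT replicates 1 to 3 and 27345, 30966 and 21847 in rdr1 replicates 1 to 3. WT replicate 3 was the highest of the 6, and the rdr1 libraries lay between the WT libraries. It ranked 4 to 8 among the 76 annotated mature sequences that were listed, depending on the library. The annotation holds 350 distinct mature sequences, and those not listed, such as all of miR168, have no rank here. For miR172a/b the difference of rdr1 from WT on the log2 scale was -0.06 (SE 0.92, limma adjusted p = 0.962). This SE follows the trend over sequences of like mean and is not the spread of this sequence alone. In the fit of the 3p sum, which is nearly all this sequence, the SE was 0.52. The difference depended on the scaling, at -0.53 with median of ratios, -0.35 with the miRNA sum and -0.64 with DESeq2, and did not pass under any of these.

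The strand shared by MIR172c and MIR172d was far rarer. It had values of 319, 392 and 1475 in WT and 1119, 780 and 566 in rdr1, so that the WT libraries again enclosed the rdr1 libraries. The log2 fold change was 0.47 (SE 0.61, limma adjusted p = 0.753). MiR172e-3p, the product of a single locus, had values of 106, 117 and 241 in WT and 139, 130.2 and 96.9 in rdr1. WT replicate 3 was again the highest, and rdr1 replicate 3 was below all WT libraries. The difference on the log2 scale was -0.26 (SE 0.65, limma adjusted p = 0.790). In the mean over the 6 libraries the order was miR172a/b (28317), miR172c/d (775) and miR172e (138.5). In each library miR172a/b was above the other 2 and miR172c/d above miR172e, so this order held beyond the spread between libraries.

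**Figure D2:**
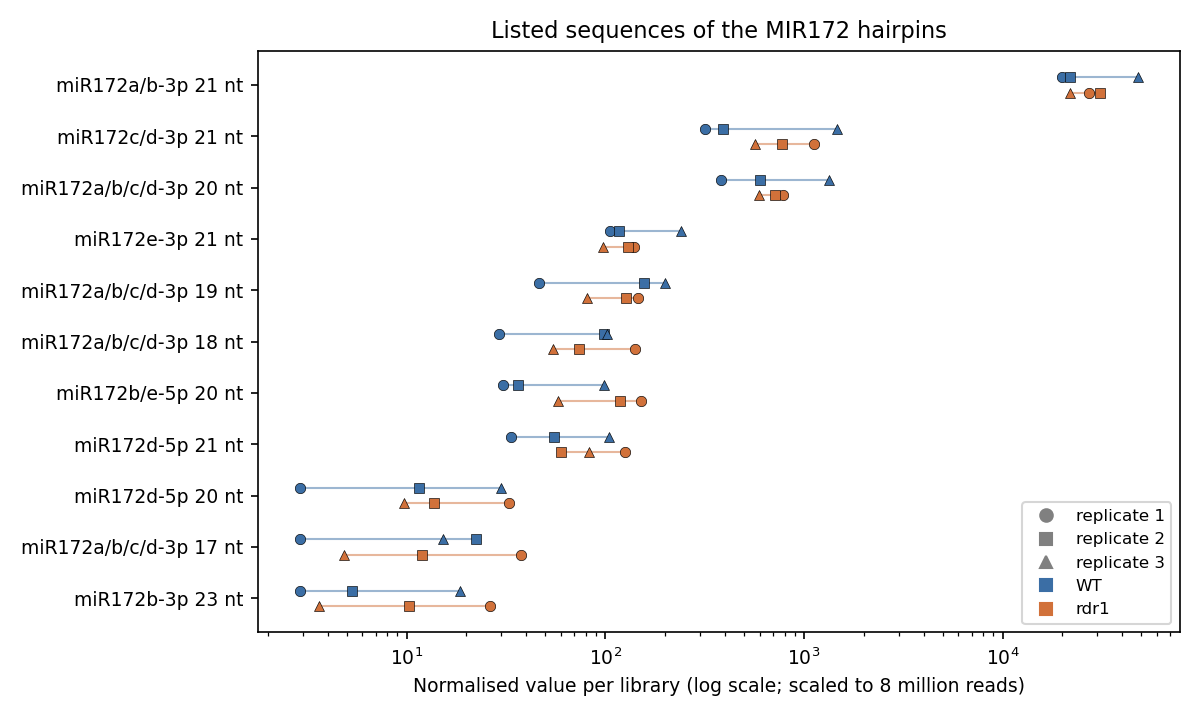
Normalised value (log scale) of each listed MIR172 sequence in the 6 libraries, in order of mean. Points are libraries, colour is genotype, shape is the replicate number and lines join the lowest and highest library of a genotype. For all 11 sequences the ranges of the genotypes overlap.

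The 5p strands, which are the partners usually discarded from the duplex, were far less abundant, with sums of 66.9 to 309 in a library. The strand shared by MIR172b and MIR172e had values of 30.5, 36.5 and 98.0 in WT and 151, 118 and 58.2 in rdr1. WT replicate 3 lay above rdr1 replicate 3, so the groups overlapped. On the log2 scale it differed by 1.06 (SE 0.70, limma adjusted p = 0.753), the highest value of the 11, which rested on 184 reads in WT and 237 in rdr1. The 21-nt strand of MIR172d had values of 33.5, 55.2 and 104 in WT and 125, 60.0 and 82.4 in rdr1, and its groups overlapped too (log2 fold change 0.55, SE 0.70, limma adjusted p = 0.753). Its 20-nt form ran from 2.91 to 29.7 in WT and from 9.69 to 32.6 in rdr1. No sequence of the 5p arms of MIR172a and MIR172c was in the table.

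None of the 11 sequences passed the limma test at an adjusted p under 0.05, against 0.216% of the 18043 sequences tested. The number at an unadjusted p under 0.05 was 0, and edgeR and DESeq2 on recovered reads also called 0. The median log2 fold change of the 11 was 0.33, with 9 above 0, beside a median of 0.47 over all sequences tested. With median of ratios scaling the median over all sequences was 0.01, that of the 11 was -0.08, and 5 were above 0. The groups overlapped for all 11. Over all sequences tested they did not overlap for 5.29%, a share too low for 11 sequences to be told apart from it.

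Summed by arm, the 3p sequences came to 20719, 23324 and 51368 in WT and 29736, 32811 and 23251 in rdr1. The 5p sequences summed to 66.9, 103 and 232 in WT and 309, 192 and 150.3 in rdr1. In a limma fit over 88 sums per miRNA family and arm, in which 1.14% were called, the log2 fold change was -0.04 (SE 0.52, adjusted p = 0.963) for miR172 3p and 0.82 (SE 0.58, adjusted p = 0.784) for miR172 5p. Neither passed. With median of ratios scaling the values were -0.51 and 0.35, with DESeq2 -0.63 and 0.18, and without replicate 1 of both genotypes -0.33 and 0.13.

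As a share of all MIR172 reads, which does not depend on how libraries are scaled, the 5p arm was higher in every rdr1 library than in any WT library. It made up 0.322%, 0.441% and 0.450% in WT replicates 1 to 3 and 1.03%, 0.582% and 0.642% in rdr1 replicates 1 to 3. The mean was 0.404% ± 0.0714 for WT against 0.750% ± 0.242 for rdr1 (SD, n = 3 per genotype; exact two-sided permutation p = 0.1, the smallest that 3 against 3 can give). The nearest libraries were WT replicate 3, with a 95% Clopper-Pearson interval of 0.400% to 0.505%, and rdr1 replicate 2, with 0.479% to 0.699%. These intervals overlap and cover counting error only. The difference of 0.346 percentage points was 0.208 without rdr1 replicate 1, the library with the most forms of 17 to 19 nt, and 0.167 without WT replicate 1 and rdr1 replicate 1 together. Leaving libraries out cannot make groups overlap that did not overlap before, so only the size of the difference could change here. The part of fragment length in this difference was not tested. Most MIR172 reads were miR172a/b, and against miR172a/b 69 of 75 annotated mature miRNAs were on average higher in rdr1 (median log2 difference 0.44). How much of the difference in the 5p share is common to other miRNAs was not tested.

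The 5p share was then split by 5p strand. For MIR172b and MIR172e, the 5p strand was 0.153%, 0.165% and 0.203% of the sum of that strand and the 3p sequences of miR172a/b (the 23-nt form included) and miR172e in WT, and 0.544%, 0.379% and 0.264% in rdr1. The means were 0.174% ± 0.0260 and 0.396% ± 0.141 (SD, n = 3 each; exact permutation p = 0.1), with groups that did not overlap, and the difference fell from 0.222 to 0.148 percentage points without rdr1 replicate 1 and to 0.138 without replicate 1 of both genotypes. Nearly all of this sum was miR172a/b. Set against miR172a/b, 17 of 75 annotated mature miRNAs (22.7%) had groups that did not overlap, and miR172b/e-5p was 1 of these. The nearest libraries, WT replicate 3 (95% Clopper-Pearson interval 0.168% to 0.242%) and rdr1 replicate 3 (0.195% to 0.350%), had intervals that overlap. For MIR172d, the 5p strand in both lengths was 10.2%, 14.6% and 8.34% of the sum with the 3p strand of MIR172c and MIR172d in WT, and 12.4%, 8.63% and 14.0% in rdr1. Those groups overlapped, with means of 11.05% ± 3.19 and 11.7% ± 2.75 (SD, n = 3 each; exact permutation p = 0.9). These shares are not strand ratios of single hairpins. Their sums also hold 3p reads that MIR172a or MIR172c can make, and neither had a listed 5p sequence. A change of MIR172a or MIR172c relative to the other precursors would also move the shares and cannot be told apart from a change of arm. The contrast between these shares was not tested, and they were computed after the values had been seen.

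**Figure D3:**
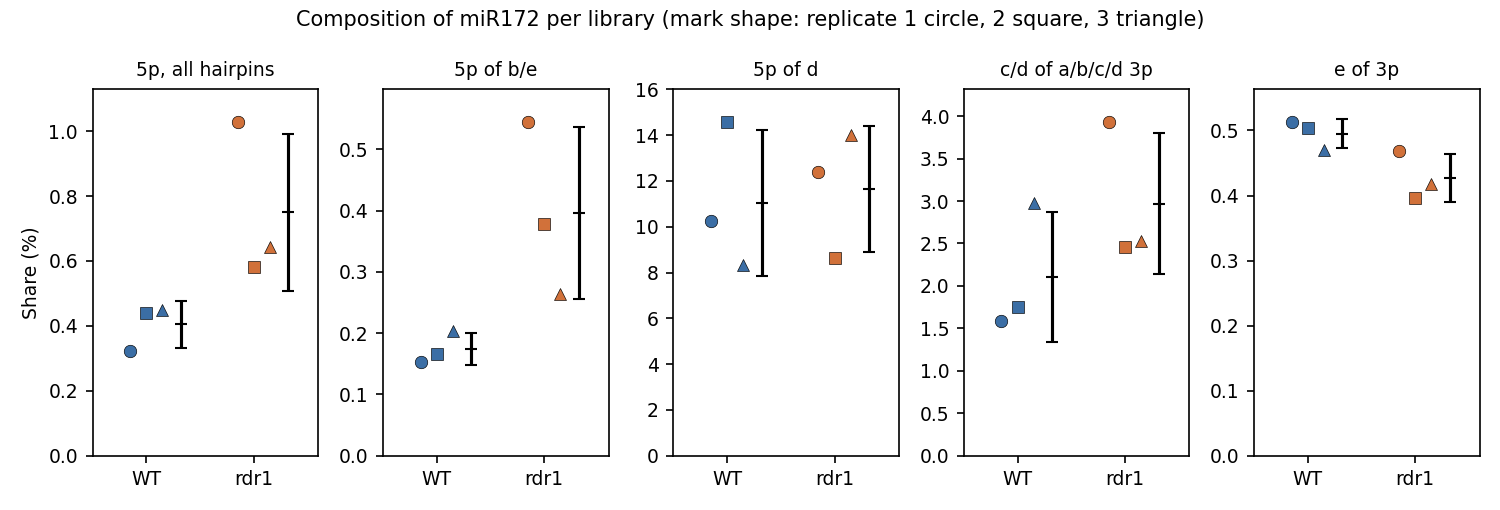
Share in percent of the 5p arm among all MIR172 reads, of the 5p strand of MIR172b and MIR172e, of the 5p strand of MIR172d, of miR172c/d among 3p forms that tell it from miR172a/b, and of miR172e among 3p forms. Points are libraries and bars are the mean ± SD of 3; the 5p share of all hairpins runs from 0.322% to 0.450% in WT and from 0.582% to 1.03% in rdr1.

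The share of the rarer arm was then compared over all miRNA families. In 27 families with both arms listed, the share of the rarer arm had groups that did not overlap in 4, or 14.8%, and in 3 of these, or 11.1%, it was higher in rdr1. The others with a higher share were miR159 and miR4245, and the family with a lower share was miR398. The annotated mature 3p strands of miR159 were not among the sequences analysed here, so its 3p sum holds other sequences of that arm. For the miR159 sequences analysed, the rarer arm over all libraries was 3p, but it held 52.3% to 74.0% of their sum in the rdr1 libraries. The miR159 5p sum fell by 1.87 on the log2 scale (limma adjusted p = 0.0260), whereas this 3p sum differed by 0.24 (limma adjusted p = 0.784). The rarer arm was on average higher in rdr1 in 16 of the 27. In some families the rarer arm need not be the strand usually discarded. No annotated mature strand of miR168, miR4245, miR472 or miR863 was among the sequences analysed, and for miR390 only 3p ones were. The arm sums of miR4245 therefore hold other sequences of its precursor. In a limma fit of the log2 ratio of the rarer to the more abundant arm over the 27 families, added after the data were seen, miR172 differed by 0.86 (SE 0.31), with an unadjusted p of 0.0215 and an adjusted p of 0.212. It did not pass. The fit called 3.70% of the families, which was miR159 alone. Without replicate 1 of both genotypes the miR172 difference was 0.46 (SE 0.23, limma adjusted p = 0.609).

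**Figure D4:**
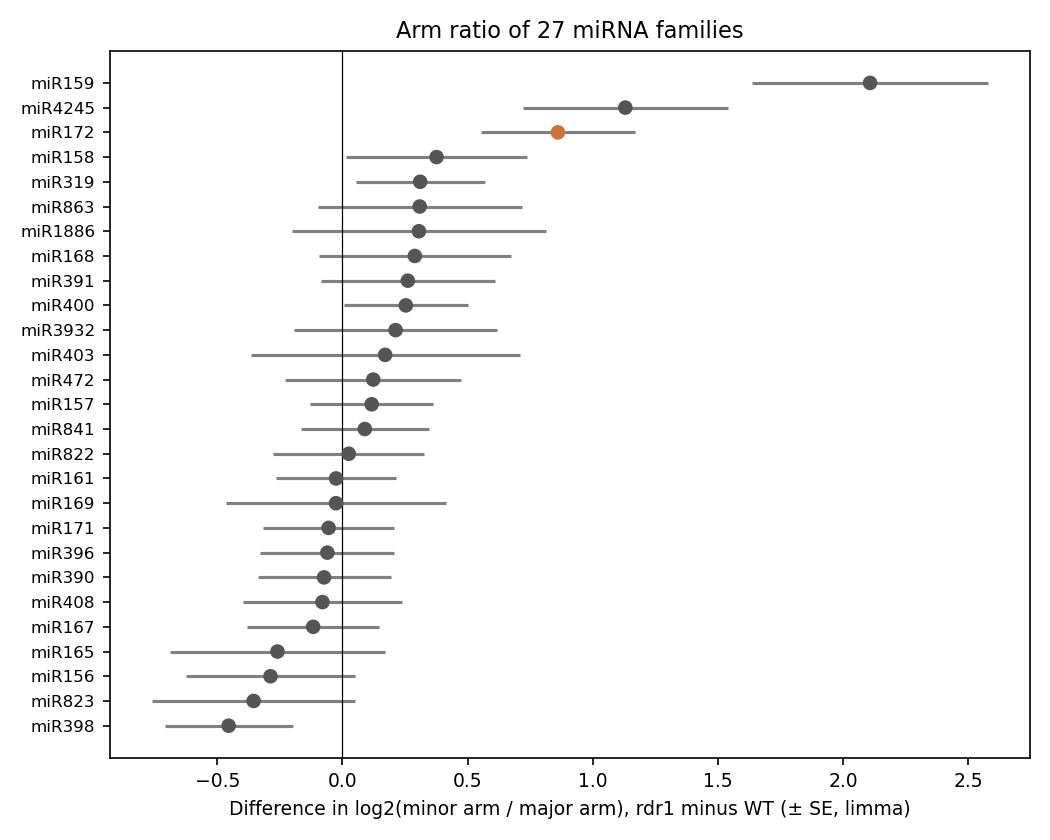
Difference between rdr1 and WT in the log2 ratio of the rarer to the more abundant arm for 27 miRNA families, with the SE from limma. The miR172 family (orange) stands at 0.86, below miR159 at 2.11 and miR4245 at 1.13.

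The balance among the 3p strands was compared in the same way. MiR172c/d made up 1.58%, 1.75% and 2.98% of the 3p forms that tell it from miR172a/b in WT, and 3.93%, 2.46% and 2.52% in rdr1. The means were 2.11% ± 0.764 and 2.97% ± 0.831 (SD, n = 3 each; exact permutation p = 0.3), with WT replicate 3 above 2 rdr1 libraries. The difference of 0.864 percentage points was 0.384 without rdr1 replicate 1 and 0.122 without replicate 1 of both genotypes. Without WT replicate 3 it was 1.30 and the groups no longer overlapped. MiR172e made up 0.513%, 0.504% and 0.469% of the 3p sum in WT and 0.468%, 0.397% and 0.417% in rdr1. The exact permutation p was 0.1 with 3 libraries per genotype. These groups touch: WT replicate 3 (95% Clopper-Pearson interval 0.418% to 0.525%) and rdr1 replicate 1 (0.385% to 0.564%) were within counting error of each other.

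No difference in the lengths of the 3p strand beyond the spread between libraries was found. Sequences of 21 nt made up 96.9% ± 0.782 of the 3p sum for WT against 96.7% ± 0.486 for rdr1 (SD, n = 3 per genotype; exact permutation p = 0.8). Among 3p sequences of MIR172a to MIR172d, forms of 17 to 20 nt made up 2.24%, 3.77% and 3.24% in WT and 3.74%, 2.83% and 3.18% in rdr1. The same measure over 56 other annotated 21-nt miRNAs was 3.51%, 5.43% and 4.52% in WT and 5.21%, 4.11% and 4.47% in rdr1. The 6 libraries stood in the same order in both, from WT replicate 1 to WT replicate 2, and miR172 was below the other miRNAs in each library. The form of 20 nt was the main short form, at 1.86% to 2.64%, and that of 17 nt the rarest, at 0.0141% to 0.127%. In each of the 6 libraries the share was lower at each step from 20 to 17 nt, although in rdr1 replicate 1 the forms of 19 nt (0.492%) and 18 nt (0.479%) were close. The 23-nt form of MIR172b, extended at the 3′ end, ran from 2.91 to 18.5 in WT and from 3.64 to 26.3 in rdr1.

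**Figure D5:**
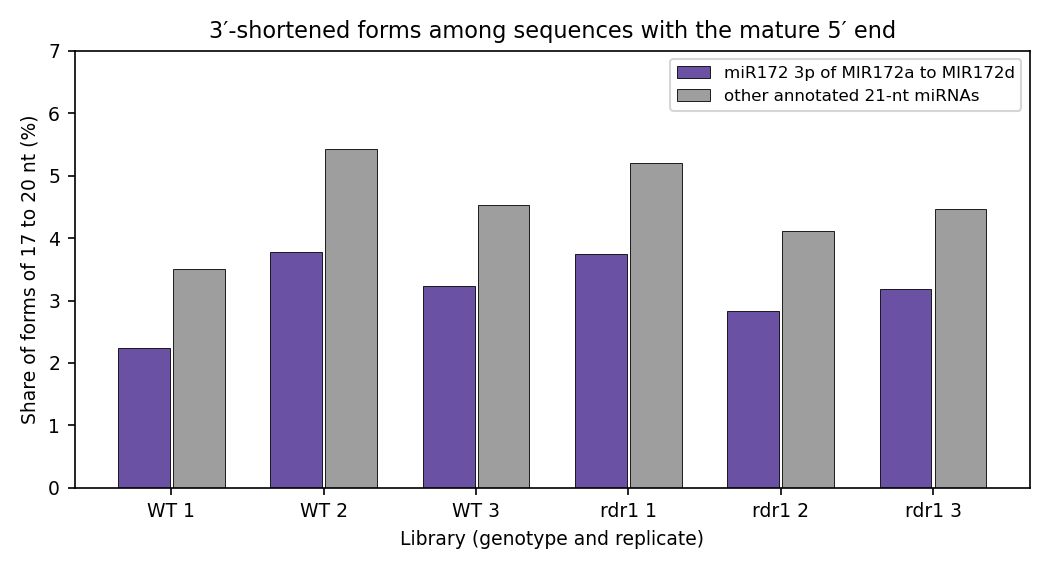
Share in percent of 3′-shortened forms of 17 to 20 nt among the sequences with the mature 5′ end, per library, for miR172 of MIR172a to MIR172d (purple) and for 56 other annotated 21-nt miRNAs (grey). The bars of miR172 run from 2.24% to 3.77% and stand in the same order of libraries as the grey bars, from 3.51% to 5.43%.

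The level of miR172a/b was also set against other miRNAs of the same library. The log2 ratio of a miRNA to miR172a/b was on average higher in rdr1 for 69 of 75 annotated mature miRNAs, with a median difference of 0.44, and for 67 to 72 with any single library left out. The groups did not overlap for 17 of the 75, or 22.7%, and for 16 of these the ratio was higher in rdr1. Without WT replicate 2 the groups did not overlap for 54 of 75, and without any other single library for 19 to 27. Groups overlap less easily with fewer libraries, so these numbers cannot be set beside the 17. These 75 ratios share the value of miR172a/b and are a single measure seen many times. The share of MIR172 sequences in the miRNA sum was 7.17%, 4.19% and 6.85% in WT and 5.02%, 4.93% and 4.19% in rdr1. These groups overlapped, and the exact permutation p was 0.3 with 3 libraries per genotype. The ratio of miR172b/e-5p to miR172a/b was on average higher by 1.12 on the log2 scale in rdr1, the value at place 2 among the 75, while that of miR172e-3p differed by -0.20. In tissue RNA, fewer cells that make a miRNA and less of it per cell cannot be told apart.

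Upstream in the age pathway, miR156 and miR157, which repress SPL mRNAs, were listed as 3 sequences that cover 10 of the 12 annotated mature strands miR156a to miR156h and miR157a to miR157d. None passed the limma test: the log2 fold change was 0.62 for miR156a to miR156f (SE 0.72, adjusted p = 0.753), 0.44 for miR157a to miR157c (SE 0.91, adjusted p = 0.770) and 0.57 for miR157d (SE 0.64, adjusted p = 0.753). With median of ratios scaling these were 0.15, -0.03 and 0.10. The log2 ratio of miR157a to miR172a/b was -0.67, 0.12 and -0.30 in WT and 0.17, 0.25 and 0.23 in rdr1. That of miR156a was -3.25, -1.98 and -2.56 in WT and -1.52, -2.14 and -2.09 in rdr1, with WT replicate 2 above 2 rdr1 libraries.

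Over the 6 libraries, the annotated miRNAs whose log2 values were most like those of miR172a/b were miR824-5p (Pearson r = 0.99), miR391-5p (0.93), miR398b-5p/miR398c-5p (0.90), miR396b-3p (0.89) and miR780.2 (0.86). The median r over the 70 miRNAs compared was 0.70, and all points share the libraries and their scaling. MiR824-5p had values of 5490, 6083 and 13754 in WT and 7633, 9218 and 6691 in rdr1, with WT replicate 3 highest and WT replicate 1 lowest, as for miR172a/b.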

How the data were processed

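Small RNA from leaves (3 WT and 3 rdr1 libraries) was sequenced as single reads of 50 bases from TRIzol-extracted RNA, per the labels' protocols. The authors deposited 1 normalised signal per distinct sequence and library, per the file headers; the submitters' processing notes name TAIR10 as the build. Trimming, aligner, filters and the method of normalisation are not given in the sources read. Each value is a whole number of reads (within 0.01 of a read for 100% of values) times a step of 8000000 over a whole number, taken as the library total; what that total counts is not stated.

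Sequences were matched to 325 precursors of the TAIR10.1 RefSeq annotation; arms were split at the precursor's midpoint, and a sequence shared by several MIR172 precursors was counted once. Sequences and sums with a mean of at least 5 were tested on log2(value + 1) with limma (empirical Bayes with trend; none for arm ratios), which understates changes of low values, with Benjamini-Hochberg adjustment at 0.05 over the whole fit. Shares were tested by exact permutation, two-sided. EdgeR and DESeq2 were run on recovered reads. The limma fits of sequences and of family and arm sums were tested on simulated data. Replicates differed beyond sampling noise (chi-square per degree of freedom 8.59 to 52.1), so each was counted as a sample; repeat preparations of 1 RNA cannot be told apart from this. The members, lists and tests were chosen with earlier results of these data known; the rule for named sequences took the 3 with the highest mean for each set of precursors matched and arm, and the 17-nt form, the fourth of its set, was named after its value was seen. The rule also named the 5 miRNAs most correlated with miR172a/b, miR156, miR157 and the targets. Other alternatives were pseudocounts of 0.5, 5 and 20, other filters, scalings, a replicate block and libraries left out. The arm ratio fit and the shares of the miR172b/e 5p strand, the miR172d 5p strand and miR172e were added after seeing the data. Versions were limma 3.58.1, edgeR 4.0.16 and DESeq2 1.42.0 under R 4.3.3, RNAfold 2.7.2, and Python 3.11.15 with pandas 2.3.3 and scipy 1.17.1.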

Additional observations from a re-analysis of the deposited data

How the results depend on the processing

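The number of MIR172 sequences called was 0 under each of the 17 alternatives run, and none of the sequences or sums passed its test under any alternative. The shares could not pass, since the exact test allows no p under 0.1 at this size. The directions of the 5p sum, miR172b/e-5p, the 5p share, the miR172b/e 5p share, the miR172c/d share, the miR172e share and the arm ratio held in all alternatives run. For the 5p share, the miR172b/e 5p share and the miR172e share, leaving libraries out could not turn the direction, because their groups did not overlap. The same holds for the arm ratio, which is built from the same sums as the 5p share. The miR172e share had groups that overlap with forms of 20 to 22 nt only (difference -0.0679, exact permutation p = 0.2). With each library left out, the ranges were 0.42 to 1.31 for the log2 fold change of the 5p sum and 0.75 to 1.57 for miR172b/e-5p (over all alternatives 0.13 to 1.31 and 0.42 to 1.57, lowest without replicate 1 of both genotypes and with DESeq2), 0.208 to 0.430 percentage points for the 5p share and 0.384 to 1.30 for the miR172c/d share, and 0.61 to 1.02 for the arm ratio.

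Other directions turned, also of log2 fold changes of 0.47 to 0.60 (miR172c/d, both forms of miR172d-5p and the 23-nt form). Without 1 library, the log2 fold change of the 3p sum ran from -0.29 to 0.36, turning without WT replicate 3 (0.36) or rdr1 replicate 3 (0.10), and that of miR172a/b from -0.29 to 0.34 (turning without the same libraries), that of miR172e-3p from -0.48 to 0.11 (turning without WT replicate 3), and those of the shared 3p forms of 20, 19, 18 and 17 nt from -0.37 to 0.53, -0.62 to 0.42, -0.27 to 0.62 and -0.44 to 0.98. The 23-nt form ran from -0.12 to 1.18 and the 20-nt form of miR172d-5p from -0.17 to 1.31. The 21-nt share ran from -0.533 to 0.236 percentage points and the miR172d 5p share from -0.735 to 2.38. Without replicate 1 of both genotypes the log2 fold changes were -0.19 for miR172c/d, -0.46, -0.80, -0.66 and -1.16 for the 20, 19, 18 and 17-nt forms, -0.62 for the 23-nt form, -0.11 and -0.65 for the 21 and 20-nt forms of miR172d-5p, and the shares differed by 0.50 for 21 nt, with groups that did not overlap, and -0.135 for miR172d 5p. With DESeq2 they were -0.34 for miR172c/d, -0.58, -0.56, -0.21 and -0.0796 for the shared forms in that order, -0.0829 for the 23-nt form, and -0.0058 and -0.20 for miR172d-5p. With median of ratios scaling the shared forms were at -0.43, -0.45, -0.15 and -0.0787, and the 20 and 19-nt forms were at -0.25 and -0.28 with miRNA sum scaling and at -0.15 and -0.20 with edgeR; the 19-nt form was at -0.0245 with a pseudocount of 20. The cause was not tested. With the replicate number as a block, the number of MIR172 sequences called was 0 and the log2 fold change of the 5p sum was 0.82 (limma adjusted p = 0.851). Same-numbered libraries did not deviate together (r from -0.72 to -0.30). Deviations within a group of 3 libraries are tied to each other, so these r cannot settle whether the numbers pair the libraries. The block took the calls over all sequences from 39 to 7. Over all sequences the number called was 15 with a mean of at least 20, 24 with a pseudocount of 20, 67 with edgeR, 142 with DESeq2, 82 without replicate 1 of both genotypes, and 8 to 56 with a library left out. Depth limits the rare strands: miR172b/e-5p rested on 21 to 122 reads in a library.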
